A study of Mus musculus with 15 samples.

Results

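Iron handling in the liver was followed through 10 genes that take up, store and release iron or set the level of the iron hormone hepcidin. Members were the probe sets (groups of short probes that read 1 gene) whose annotated symbol is Hamp, Tfrc, Tfr2, Trf, Fth1, Ftl1, Slc40a1, Bmp6, Hfe or Cp. Each symbol had a single probe set, so all 10 members entered, of 19505 symbols measured. The data are liver RNA profiles from 15 Clariom S mouse arrays in 5 groups of 3. All mice were C57BL/6 animals colonised with a human gut microbiota. The groups drank 10% fructose with sodium benzoate, 10% fructose with sodium nitrite, 10% fructose with potassium sorbate, 10% fructose alone, or water. Preservatives were set to an estimated maximum European daily intake, and treatment ran for 11 weeks from the age of 3 weeks. By the methods the mice were then 14 weeks old, while their labels state 11 weeks. By the methods, each full treatment group held males and females in equal number, and 3 mice per group were profiled here. Each array is a separate sample, the labels give no sex, and the microbiota came from a single human donor sample kept over several generations of mice. The study asked how fructose, alone and with a preservative, altered the liver.

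Hepcidin, the product of Hamp, is a small peptide that hepatocytes secrete and that removes ferroportin, the only known cellular iron exporter, from the surface of macrophages, gut cells and hepatocytes. Its transcription is driven by an iron-sensing arm, in which endothelial BMP6 acts on hepatocyte receptors and SMAD proteins with HFE and the hepatocyte transferrin receptor TFR2 as partners. It is also driven by an inflammatory arm, in which IL-6 acts through STAT3. Transferrin carries iron in plasma, the classical receptor TFRC takes it up, ferritin made of FTH1 and FTL1 stores it, and ceruloplasmin (Cp) oxidises it on release.

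The proximal Hamp promoter holds an element for each arm, and the mouse genome carries a close paralogue, Hamp2, so both stretches are shown from RefSeq (GRCm38.p6, minus strand), from -150 to -51 bases of the transcript start in Hamp and from -147 to -48 in Hamp2. The capitals mark the BMP response element letters GGCGCC and the STAT element letters TTCNNNGAA, each searched on both strands.
Hamp, chr7:30944080-30944179: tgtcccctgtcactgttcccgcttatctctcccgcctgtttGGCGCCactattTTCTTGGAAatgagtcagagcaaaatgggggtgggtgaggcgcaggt
Hamp2, chr7:30924229-30924328: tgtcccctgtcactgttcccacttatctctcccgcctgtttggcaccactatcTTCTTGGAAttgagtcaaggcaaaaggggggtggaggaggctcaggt
The 2 stretches were identical at 90 of 100 bases. The STAT element was the same in both. In the BMP element, Hamp2 carried the substitution G4A, counted from 1 at the 5′ end of the 6 bases of Hamp, so the full letters were matched in Hamp only. Promoter windows of 300 bases were at hand for 8 of the 10 members. Beside Hamp, GGCGCC was found in 1 of 2 windows of Tfrc, and TTCNNNGAA in no other member. Of 32851 such windows in the reference table, 11.9% held GGCGCC and 8.3% held TTCNNNGAA, so these matches are a description only.

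Some properties of the whole array set touch the values below. The correlation between arrays was 0.965 to 0.989 within groups, and 0.904 to 0.988 for pairs from separate groups. The median signal of the 5222 negative control probes (log2 scale) was 6.33 to 6.53 on fructose arrays and 5.58 to 5.63 on water arrays. The mean of 4 hybridization controls, added in fixed amounts, was 11.93 to 12.22 on fructose arrays, against 12.64 to 13.21 on water arrays. Genes with very long transcripts rose in fructose livers against water livers in 18 of 21 cases, and ribosomal protein genes fell in 36 of 43. Over all probe sets, 11.8% rose and 12.7% fell. Signal of 3 Y-linked genes averaged 9.37 to 10.00 on 10 arrays and 3.39 to 4.17 on the other 5, which were fructose-benzoate arrays 2 and 3 and all 3 fructose-sorbate arrays. For the fructose-sorbate group, treatment and absence of Y-linked signal therefore cannot be told apart. In that group 6 of 16 sex-dependent liver genes rose and 6 fell against fructose, where 0.635% of all probe sets were called. The mean of 12 hepatocyte markers was 17.93 to 17.97 on fructose arrays and 17.25 to 17.79 on water arrays.

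Fructose was accompanied by higher Tfr2, Cp and Bmp6 and lower Hfe than water. Of the 10 members, 3 rose and 1 fell at an adjusted p under 0.05 in limma, where 24.4% of all 22206 probe sets tested were called (11.8% higher and 12.7% lower). The median difference of the members was 0.25 on the log2 scale, against -0.12 over all probe sets. Hamp itself, both ferritin chains, transferrin, Tfrc and ferroportin (Slc40a1) did not pass. Against water, 4 members were called in fructose-benzoate livers, 3 in fructose-nitrite livers and 3 in fructose-sorbate livers, where 34.3%, 34.8% and 36.5% of all probe sets were called in that order of groups (15.6%, 16% and 16.7% higher, and 18.7%, 18.8% and 19.8% lower). Tfr2 and Cp rose and Hfe fell in each of these comparisons, which all share the same 3 water arrays. The arrays of the groups did not overlap for 4 members with fructose, 4 in the benzoate group, 3 in the nitrite group and 5 in the sorbate group, beside 36.6%, 40.5%, 43.4% and 42.4% of all probe sets. In the fructose-benzoate group Slc40a1 rose as well. With Y-linked signal as a covariate, 1 member (Tfr2) passed against water with benzoate and 1 (Tfr2) with sorbate. Only the fructose-benzoate group held arrays with and without that signal, so this fit rests largely on its array 1 against arrays 2 and 3. With the hybridization controls as a covariate none passed in the 4 comparisons. The members' median differences were 0.26 with benzoate, 0.22 with nitrite and 0.45 with sorbate, against -0.19, -0.15 and -0.20 over all probe sets.

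**Figure D1:**
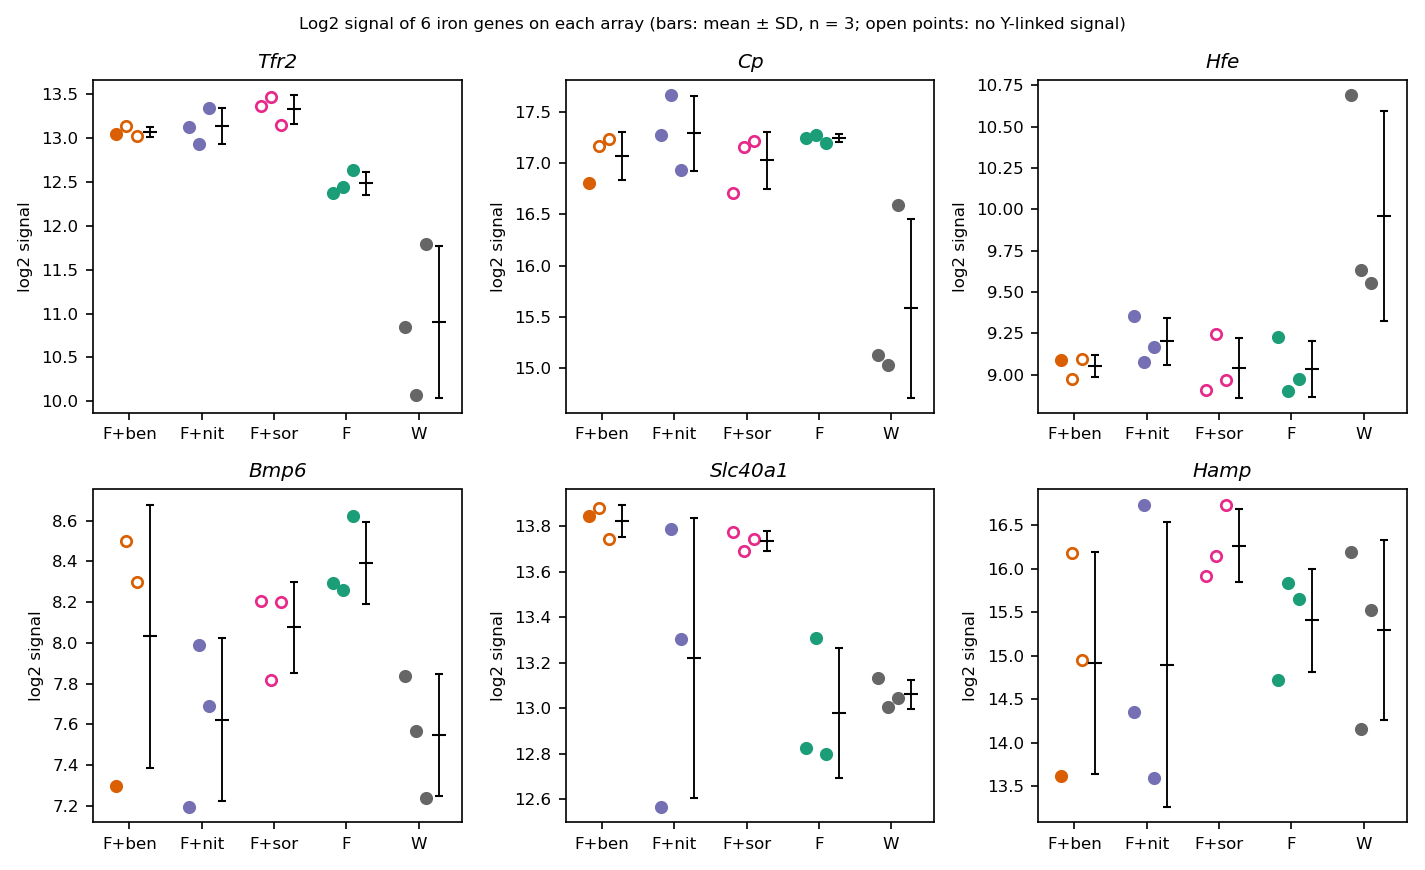
Log2 signal (vertical axis) of Tfr2, Cp, Hfe, Bmp6, Slc40a1 and Hamp on each array, by group (F+ben, F+nit and F+sor are fructose with benzoate, nitrite or sorbate, F fructose, W water). Points are single arrays, open where Y-linked signal was absent, and black bars give the mean ± SD of 3 arrays. Tfr2 lay at 12.38 or above on all fructose-containing arrays and at 11.79 or below on water arrays, whereas Hamp spanned 13.60 to 16.73 with overlap between all groups apart from fructose-sorbate and fructose.

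Hepcidin and its regulators are taken first. Hamp signals (log2) were 13.62, 16.17 and 14.95 in fructose-benzoate livers, 14.35, 16.73 and 13.60 in fructose-nitrite livers and 15.92, 16.14 and 16.73 in fructose-sorbate livers. In fructose livers they were 14.72, 15.83 and 15.66, against 16.19, 14.16 and 15.52 in water livers. The fructose-nitrite livers thus spanned the whole range of the 15 arrays, and only the fructose-sorbate livers were uniformly high, with their lowest value above the highest fructose value. Hamp differed by 0.11 ± 0.69 (log2, SE) between fructose and water livers, with a 95% interval from -1.34 to 1.56 and an adjusted p of 0.924 (limma). The fructose-sorbate group was 0.97 ± 0.69 above water (adjusted p = 0.281) and 0.86 ± 0.69 above fructose (adjusted p = 0.632). With benzoate and nitrite the differences from water were -0.38 and -0.40, with 95% intervals of -1.83 to 1.07 and -1.85 to 1.05, so sizeable changes in either direction were not resolved with 3 arrays per group.

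Hamp2, a paralogue that mice carry and humans do not, ran closely with Hamp over the 15 arrays (Pearson r = 0.88, Spearman rho = 0.90, a description over arrays that share groups). Transcripts this alike may share probe signal, and the probe sequences were not analysed here, so the pair is reported as uncertain. Hamp2 signals were 12.96, 16.41 and 14.83 in fructose-benzoate livers, 13.51, 15.20 and 13.01 in fructose-nitrite livers and 16.20, 15.94 and 16.87 in fructose-sorbate livers. In fructose livers they were 14.04, 14.62 and 14.31, against 15.26, 13.20 and 14.18 in water livers. All fructose-sorbate values lay above all fructose and water values. Hamp2 rose in fructose-sorbate livers against water livers by 2.12 ± 0.68 (log2, SE), a 4.35-fold difference with an adjusted p of 0.0209 (limma). This call was lost without water array 2 (1.62, adjusted p = 0.104) or fructose-sorbate array 3 (1.85, adjusted p = 0.0838). With Y-linked signal as a covariate the difference was -0.24 (adjusted p = 0.904). Only the fructose-benzoate group held arrays with and without that signal. The covariate value thus rests largely on its array 1 against arrays 2 and 3, and cannot decide the call. Against fructose the Hamp2 difference was 2.01 ± 0.68 with an unadjusted p of 0.0081 and an adjusted p of 0.187. The difference between the Hamp2 and Hamp signals of an array ran from -1.53 to -0.59 on the 10 arrays with Y-linked signal and from -0.20 to 0.28 on the 5 without it, given as a description with no test.

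**Figure D2:**
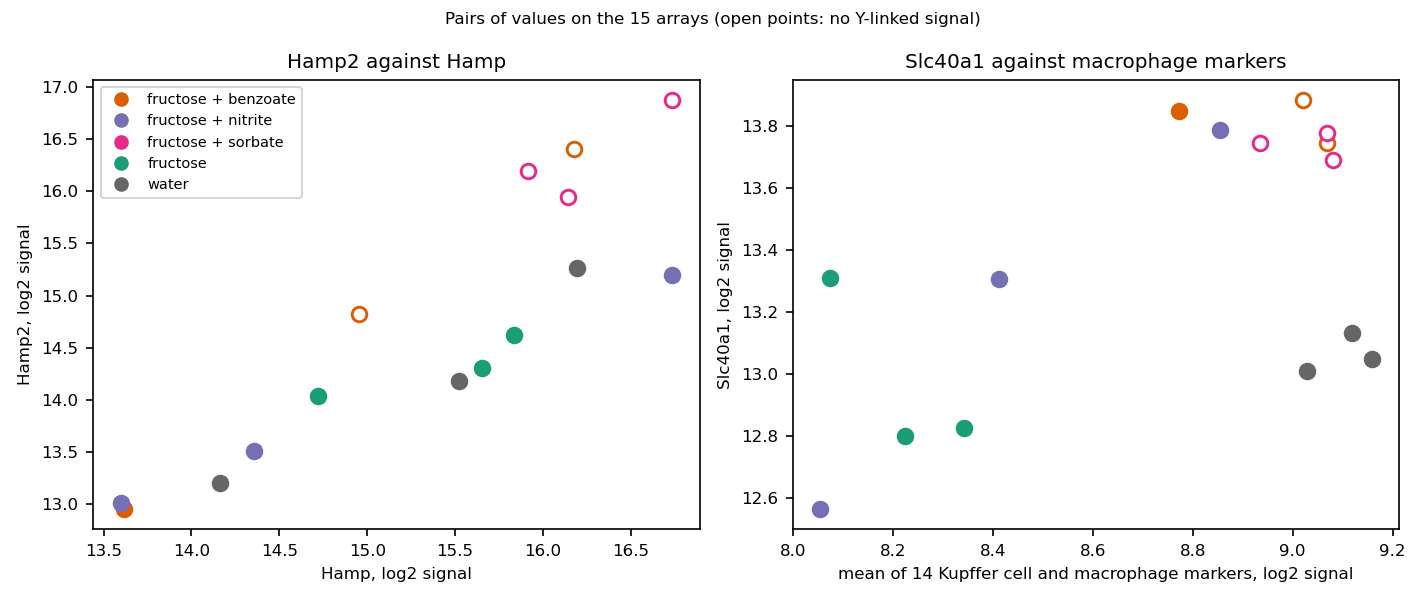
Left, log2 signal of Hamp2 (vertical) against Hamp (horizontal) on the 15 arrays. Right, log2 signal of Slc40a1 (vertical) against the mean of 14 Kupffer cell and macrophage markers (horizontal). Colours give the groups and open points the 5 arrays without Y-linked signal, which sit above the other 10 in Hamp2 for a given Hamp signal and between 13.69 and 13.88 in Slc40a1.

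Bmp6 encodes the ligand that liver endothelial cells send to hepatocytes when iron is high. Its signals were 7.30, 8.50 and 8.30 in fructose-benzoate livers, 7.19, 7.99 and 7.69 in fructose-nitrite livers and 8.21, 7.82 and 8.20 in fructose-sorbate livers. They were 8.29, 8.26 and 8.63 in fructose livers, against 7.84, 7.57 and 7.24 in water livers. Fructose and water arrays did not overlap, as was true of 36.6% of all probe sets, and the preservative groups lay between or across them. Bmp6 rose by 0.84 ± 0.30 (log2, SE) in fructose livers against water livers, a 1.79-fold difference with an adjusted p of 0.0489 (limma). The call was lost on leaving out water array 2 (adjusted p = 0.0933) or 3 (0.122), or fructose array 1 (0.0759), 2 (0.0847) or 3 (0.163), with differences of 0.69 to 0.91. On no array did Bmp6 exceed the 90th percentile of the negative controls, whose median was 0.83 higher on fructose arrays than on water arrays, and the part of this background in the difference was not tested. Against fructose, Bmp6 in fructose-nitrite livers differed by -0.77 ± 0.30, with an unadjusted p of 0.0200 and an adjusted p of 0.919.

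Hfe, an MHC-like partner of the transferrin receptors whose loss causes haemochromatosis in humans, was the member that fell. Its signals were 9.09, 8.98 and 9.10 in fructose-benzoate livers, 9.36, 9.08 and 9.17 in fructose-nitrite livers and 8.91, 9.24 and 8.97 in fructose-sorbate livers. They were 9.23, 8.90 and 8.97 in fructose livers, against 10.69, 9.63 and 9.56 in water livers. Every fructose-containing array lay below every water array, and water array 1 stood more than 1 log2 unit above the other two. Hfe fell by 0.93 ± 0.27 (log2, SE) with fructose (adjusted p = 0.0169, limma), by 0.91 with benzoate (adjusted p = 0.0138), by 0.76 with nitrite (adjusted p = 0.0345) and by 0.92 with sorbate (adjusted p = 0.0123), all against water. Without water array 1 the differences were -0.56 with fructose (adjusted p = 0.0923), -0.54 with benzoate (0.0824), -0.39 with nitrite (0.207) and -0.55 with sorbate (0.0718), so none of the 4 calls held. The fructose call was also lost without fructose array 2 (adjusted p = 0.0658) or 3 (0.0587), and the nitrite call without fructose-nitrite array 1 (0.0512), 2 (0.102) or 3 (0.0818). The fructose-containing groups differed among themselves by at most 0.17. Hfe was dim, and passed the 90th percentile of the negative controls on 11 of 15 arrays. The other 4 were fructose array 2, benzoate array 2, nitrite array 2 and sorbate array 3, all from groups called lower, and the part of the background in the difference was not tested.

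Tfr2, the hepatocyte receptor that senses iron-loaded transferrin, rose in every comparison with water. Its signals were 13.05, 13.13 and 13.03 in fructose-benzoate livers, 13.13, 12.94 and 13.34 in fructose-nitrite livers and 13.36, 13.47 and 13.15 in fructose-sorbate livers. They were 12.38, 12.44 and 12.63 in fructose livers, against 10.85, 10.07 and 11.79 in water livers. The order of the groups was sorbate, nitrite, benzoate, fructose and water, and no preservative array overlapped the fructose arrays. The nitrite values overlapped those of benzoate and sorbate, which did not overlap each other. Tfr2 rose by 1.58 ± 0.31 (log2, SE) with fructose, a 2.99-fold difference with an adjusted p of 0.0014 (limma). Against water it rose 4.49-fold with benzoate (adjusted p = 6.01e-05), 4.69-fold with nitrite (adjusted p = 3.86e-05) and 5.35-fold with sorbate (adjusted p = 2.03e-05), and no single array left out ended any of these calls. With water arrays 1 and 2 both left out, only 1 water array remained. It has no spread of its own, so only sizes are given. The mean Tfr2 signal of the fructose group lay 0.69 above this array, and that of the benzoate group 1.28 above it. For the nitrite group the difference was 1.34, and for the sorbate group 1.53. In bulk tissue, a change in RNA per hepatocyte and a change in the share of hepatocytes cannot be told apart. Against fructose, Tfr2 differed by 0.59 with benzoate, 0.65 with nitrite and 0.84 with sorbate (SE 0.31 each), with unadjusted p values of 0.0748, 0.0502 and 0.0144 and adjusted p values of 0.587, 0.919 and 0.229. Across the members, arrays did not overlap with those of the fructose group for 5 genes with benzoate, 2 with nitrite and 7 with sorbate, beside 17.3%, 16.2% and 23.1% of all probe sets.

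**Figure D3:**
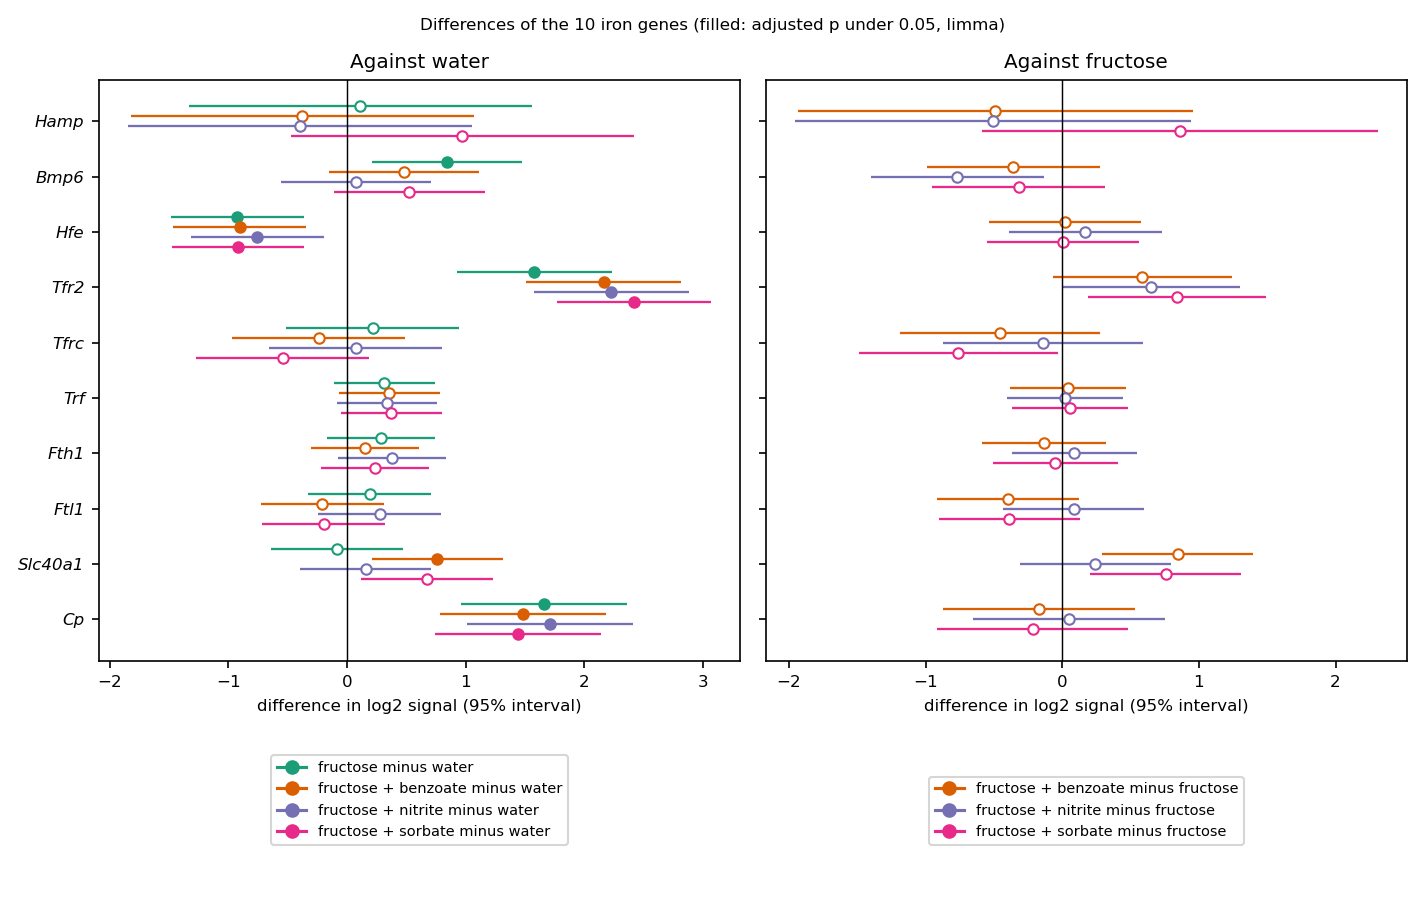
Differences in log2 signal (horizontal axis, points with 95% intervals from limma) of the 10 members against water (left) and against fructose (right), with genes down the page. Filled points passed an adjusted p of 0.05. Tfr2, Cp and Hfe carry filled points in all 4 comparisons with water, Bmp6 in fructose and Slc40a1 in fructose-benzoate only, and no point is filled against fructose.

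Among the uptake genes, Tfrc, the receptor that most cells use to import transferrin iron, was dim. Its signals were 8.51, 8.72 and 8.48 in fructose-benzoate livers, 8.95, 9.33 and 8.37 in fructose-nitrite livers and 8.73, 7.55 and 8.52 in fructose-sorbate livers. They were 9.04, 9.00 and 9.03 in fructose livers, against 7.98, 9.20 and 9.25 in water livers. The fructose arrays lay close together inside the spread of the water arrays, and all benzoate and sorbate values lay below them. The difference between fructose and water livers was 0.22 ± 0.35 (log2, SE; adjusted p = 0.690, limma). Fructose-sorbate livers differed from water livers by -0.54 (adjusted p = 0.231), and passed only without water array 1 (0.0347). Against fructose, Tfrc differed by -0.76 ± 0.35 with sorbate (unadjusted p = 0.0425, adjusted p = 0.351) and by -0.46 with benzoate (adjusted p = 0.739). Tfrc passed the 90th percentile of the negative controls on 6 of 15 arrays.

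Trf, the plasma iron carrier and among the most abundant hepatocyte transcripts, lay between 19.62 and 19.76 on the 12 fructose-containing arrays, against 19.15, 19.23 and 19.68 on the water arrays. Only water arrays 1 and 2 were set apart. Differences from water were 0.31 for fructose, 0.36 for benzoate, 0.34 for nitrite and 0.37 for sorbate (SE 0.20 each), and none passed (adjusted p 0.155 to 0.271, limma). Its signal was within 0.37 of the highest on every array.

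The storage genes were close to level. Fth1, the ferritin chain that oxidises iron on entry, ranged over 18.50 to 19.05 on fructose-containing arrays, against 18.23, 18.46 and 18.81 on water arrays. Ftl1, the chain that helps form the iron core, ranged over 15.95 to 17.11, against 16.69, 16.25 and 16.59. Water arrays 1 and 2 lay below all others in Fth1, and the water values of Ftl1 lay inside the range of the others. With fructose, Fth1 differed from water by 0.29 ± 0.22 (log2, SE; adjusted p = 0.351, limma) and Ftl1 by 0.19 ± 0.25 (adjusted p = 0.607), with 95% intervals of -0.17 to 0.74 and -0.33 to 0.71. Against fructose, Ftl1 differed by -0.40 with benzoate (adjusted p = 0.662), 0.08 with nitrite (0.988) and -0.39 with sorbate (0.531). Fth1 differed by -0.13, 0.09 and -0.05 in that order (adjusted p 0.892 to 0.985). Ferritin is controlled largely at translation, which RNA arrays do not read.

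**Figure D4:**
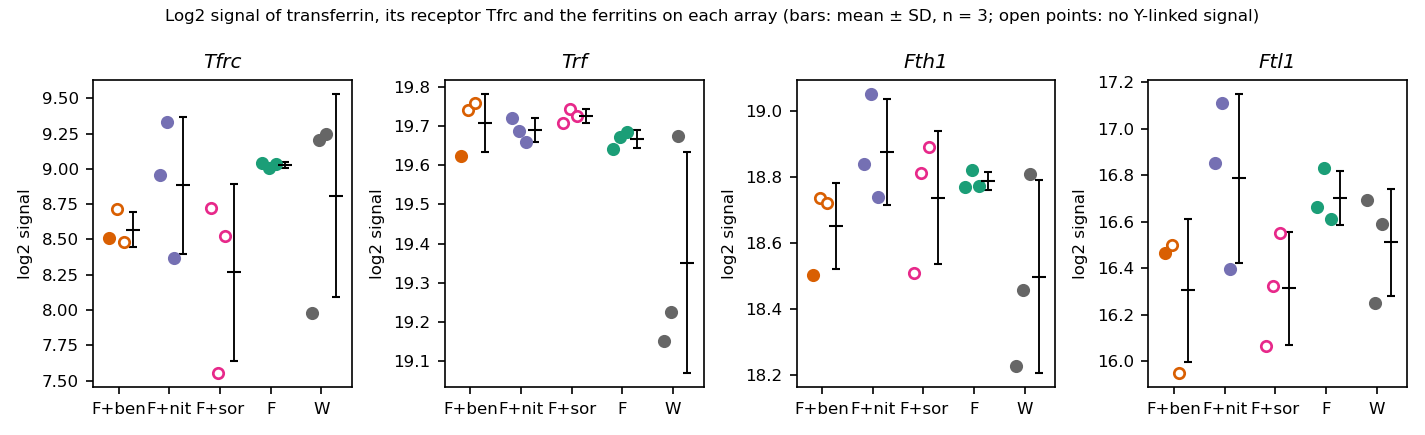
Log2 signal (vertical axis) of Tfrc, Trf, Fth1 and Ftl1 on each array, by group as labelled on the horizontal axis (fructose with benzoate, nitrite or sorbate, fructose, water). Points are single arrays, open where Y-linked signal was absent, and black bars give the mean ± SD of 3 arrays. In the fit of all 15 arrays, no group differed from water or fructose past an adjusted p of 0.05 in these genes (limma). Water arrays 1 and 2 are the lowest points in Trf (19.15 and 19.23) and Fth1 (18.23 and 18.46).

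Export genes behaved differently from each other. Slc40a1 encodes ferroportin, which is abundant in Kupffer cells and also present in hepatocytes. Its signals were 13.85, 13.88 and 13.74 in fructose-benzoate livers, 12.56, 13.79 and 13.31 in fructose-nitrite livers and 13.78, 13.69 and 13.74 in fructose-sorbate livers. They were 12.83, 13.31 and 12.80 in fructose livers, against 13.13, 13.01 and 13.05 in water livers. Every benzoate and sorbate value was above every fructose and water value, whereas the nitrite livers spanned nearly the whole range. Slc40a1 rose by 0.76 ± 0.26 (log2, SE) in fructose-benzoate livers against water livers, a 1.70-fold difference with an adjusted p of 0.0327 (limma), and fructose-sorbate livers differed by 0.67 ± 0.26 (adjusted p = 0.0531). The benzoate call was lost with any 1 of the 6 arrays left out: water array 1 (adjusted p = 0.0547), 2 (0.0760) or 3 (0.0509), or benzoate array 1 (0.0632), 2 (0.0861) or 3 (0.0628), with differences of 0.73 to 0.80.

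Against fructose, no member passed in any preservative comparison, and the same held in a moderated F test over the 3 preservative contrasts, where 0.432% of all probe sets passed. The tool was limma, and the share of all probe sets called was 0.0135% with benzoate, 0% with nitrite and 0.635% with sorbate. At an unadjusted p under 0.05, 1 member was counted with benzoate, 1 with nitrite and 3 with sorbate, where 9.37%, 5.2% and 13.4% of all probe sets were counted. Slc40a1 accounted for the benzoate count with a difference of 0.85 ± 0.26 (log2, SE; unadjusted p = 0.00492, adjusted p = 0.341). With sorbate it differed by 0.76 ± 0.26 (unadjusted p = 0.0101, adjusted p = 0.204), and the other 2 members counted there were Tfr2 and Tfrc, with the values above. In the F test Slc40a1 had the smallest p of the 10 (unadjusted p = 0.0129, adjusted p = 0.370). Slc40a1 signal was 13.69 to 13.88 on the 5 arrays without Y-linked signal. Of the arrays with it, fructose-benzoate array 1 (13.85) and fructose-nitrite array 2 (13.79) lay in that range, and the others at 12.56 to 13.31. These values are a description with no test. The members' median differences from fructose were -0.15 with benzoate, 0.07 with nitrite and -0.02 with sorbate, against -0.03, -0.01 and -0.03 over all probe sets.

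Macrophage markers were read beside Slc40a1. The mean of 14 Kupffer cell and macrophage markers was 8.77 to 9.07 on fructose-benzoate arrays, 8.05 to 8.86 on fructose-nitrite arrays, 8.94 to 9.08 on fructose-sorbate arrays, 8.07 to 8.34 on fructose arrays and 9.03 to 9.16 on water arrays. Fructose-benzoate and fructose-sorbate arrays were thus both apart from fructose arrays in both measures, while water arrays had high marker signal with low Slc40a1. In fructose-sorbate livers against fructose livers, 3 of the 14 markers rose and none fell, where 0.635% of all probe sets were called. They were Clec4f (1.16), Cd5l (1.74) and Csf1r (1.20, all log2). Clec4f, the smallest of these rises, was named after its value was seen. In fructose livers against water livers, 6 of 14 fell, beside 12.7% of all probe sets. Among them were the lysozyme gene Lyz2 (-3.35) and the complement gene C1qa (-1.68). The mean of 15 sinusoidal endothelial markers, from the cells that make Bmp6, was 9.08 to 9.47 on fructose arrays and 8.43 to 9.07 on water arrays. It was 9.42 to 10.20 on fructose-benzoate, 9.60 to 9.86 on fructose-nitrite and 9.97 to 10.16 on fructose-sorbate arrays. Nitrite and sorbate arrays thus lay above all fructose arrays in this mean, and below them in Bmp6. Of these markers 6 were higher and 1 lower with fructose against water, beside 11.8% and 12.7% of all probe sets. The part of these cells in the Slc40a1 and Bmp6 differences was not tested.

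Cp encodes ceruloplasmin, the copper-bearing plasma ferroxidase that helps load iron onto transferrin and is also an acute phase protein. Its signals were 16.81, 17.17 and 17.24 in fructose-benzoate livers, 17.28, 17.67 and 16.93 in fructose-nitrite livers and 16.71, 17.16 and 17.21 in fructose-sorbate livers. They were 17.25, 17.28 and 17.20 in fructose livers, against 15.13, 15.03 and 16.59 in water livers. All fructose-containing arrays lay above all water arrays, and water array 3 came close to the lowest of them. Cp rose by 1.66 ± 0.33 (log2, SE) with fructose, a 3.16-fold difference with an adjusted p of 0.00162 (limma), and by 1.49 with benzoate (adjusted p = 0.00231), 1.71 with nitrite (adjusted p = 0.000744) and 1.44 with sorbate (adjusted p = 0.00273). No single array left out ended these calls. Set against water array 3 alone, which gives no spread to test by, the difference with fructose was 0.65. After adjustment for the hybridization controls, which were higher on every water array than on all others, it was 0.19 (adjusted p = 0.948). Over the 15 arrays Cp and Trf ran together at r = 0.93 (rho = 0.44). This fell to r = 0.26 without water arrays 1 and 2, the 2 arrays farthest from the Trf median. With the group means subtracted, r over the 15 arrays was 0.90.

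Genes around the members were read from lists chosen for the pathway. In fructose livers against water livers, 11.8% of all probe sets rose and 12.7% fell, with a median difference of -0.12. In the BMP and SMAD arm of hepcidin control, 6 of 19 measured genes rose and none fell in this comparison, with a median difference of 0.29. The largest rises were Bmpr2, the type II BMP receptor (2.85 ± 0.44, log2, SE; adjusted p = 0.000228, limma), and Neo1, neogenin, which binds hemojuvelin (2.65 ± 0.42; adjusted p = 0.000286). The protease Tmprss6, which restrains hepcidin by cleaving hemojuvelin, also rose (1.02 ± 0.24; adjusted p = 0.0052), as did Smad4 (1.16), Smad5 (1.51) and the proprotein convertase Furin (1.35). The BMP target Id1, a common readout of the arm, differed by -0.51 (adjusted p = 0.443). Tmprss6, Smad4, Smad5, Furin and Id1 were chosen after their values were seen. Against water, 9 genes of this list rose and none fell with benzoate, 9 rose and 1 fell with nitrite, and 11 rose and none fell with sorbate, beside 15.6%, 16% and 16.7% of all probe sets higher and 18.7%, 18.8% and 19.8% lower.

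The inflammatory arm moved in both directions. Of 22 measured genes of the IL-6 and STAT3 arm and the acute phase, 4 rose and 8 fell with fructose against water. Their median difference was 0.00, and over all probe sets 11.8% rose and 12.7% fell. The receptor subunit Il6st rose (1.57 ± 0.33, log2, SE; adjusted p = 0.00207, limma), as did Itih4 (1.52 ± 0.40; adjusted p = 0.0103), a plasma acute phase protein. The serum amyloid genes Saa1 and Saa2, strong acute phase reactants, fell the most. Saa1 averaged 9.49 ± 1.00 in fructose livers and 14.99 ± 0.68 in water livers (SD, n = 3), a difference of -5.50 (adjusted p = 0.000124). Saa2 averaged 8.88 ± 1.09 in fructose livers and 14.43 ± 1.90 in water livers, a difference of -5.55 (adjusted p = 0.00107). Saa1 and Saa2 are near-identical genes, and their signals may not be separate. Hamp, which shares this arm, differed by 0.11 in the same comparison.

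Iron movement inside the cell was covered by further lists. Of 26 other transport genes for iron and haem iron, 6 rose and 2 fell with fructose against water, beside 11.8% and 12.7% of all probe sets. The largest rise was Lrp1 (3.70 ± 0.47, log2, SE; adjusted p = 7.12e-05, limma), which takes up haem bound to hemopexin, followed by Slc39a14 (1.67 ± 0.36; adjusted p = 0.00257), the ZIP14 importer of non-transferrin iron. Blvra, biliverdin reductase, fell (-1.11 ± 0.22; adjusted p = 0.00155), as did lactoferrin, Ltf (-0.81; adjusted p = 0.0166), whose means of 4.39 in fructose livers and 5.21 in water livers lay under the negative control medians. Of 12 iron regulatory and iron-responsive genes, 5 rose and 4 fell. Aco1, the iron regulatory protein that binds ferritin and Tfrc transcripts when iron is low, rose by 2.34 ± 0.32 (adjusted p = 0.000108), and Epas1, whose transcript carries an iron-responsive element, by 2.46 ± 0.38 (adjusted p = 0.000239). Fbxl5, an iron-sensing ubiquitin ligase subunit that targets iron regulatory protein for degradation, fell (-1.17 ± 0.25; adjusted p = 0.00249), and so did Vhl (-1.30 ± 0.28; adjusted p = 0.00237).

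Of 20 iron-sulfur cluster assembly genes, 11 fell and 1 rose with fructose against water, beside 12.7% and 11.8% of all probe sets. The median difference was -0.68, against -0.12 over all probe sets. Lyrm4, the ISD11 subunit of the cysteine desulfurase complex, fell by 1.68 (adjusted p = 0.000236, limma), and Isca2, a late-acting assembly factor, by 1.23 (adjusted p = 0.00192). The mitochondrial chaperone Hspa9 rose by 1.57 (adjusted p = 0.000923). Haem synthesis was mixed, with Cpox up by 1.56 (adjusted p = 0.00249), the mitochondrial glycine carrier Slc25a38 down by 0.88 (adjusted p = 0.0172) and 6 of 8 genes not passing. Erythroid markers, of which 9 of 17 were measured, had means of 6.15 to 6.29 on fructose arrays and 6.37 to 6.78 on water arrays. The fructose means lay under the negative control median of their arrays, and the water means above it, so this signal is near background. Of these markers Ank1 fell (-1.20; adjusted p = 0.00216). No gene of the BMP, inflammatory, transport, iron regulatory, cluster and haem lists passed in any of the 3 comparisons with fructose (limma). At an unadjusted p under 0.05, where 9.37% of all probe sets were counted for benzoate, 5.2% for nitrite and 13.4% for sorbate, the BMP list counted 2 of 19 genes higher with benzoate, 1 with nitrite and 6 with sorbate, and none lower. The inflammatory list counted 5 of 22 higher with benzoate, 1 higher and 1 lower with nitrite, and 4 higher with sorbate. The transport list counted 3 of 26 higher and 1 lower with benzoate, 4 higher with nitrite, and 6 higher and 1 lower with sorbate, and the cluster list 4 of 20 lower with benzoate, none with nitrite and 2 lower with sorbate. The iron regulatory list counted 1 of 12 higher and 1 lower with benzoate, 1 higher with nitrite, and 1 higher and 1 lower with sorbate, and the haem list 1 of 8 higher and 1 lower with benzoate, none with nitrite and 1 higher with sorbate.

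**Figure D5:**
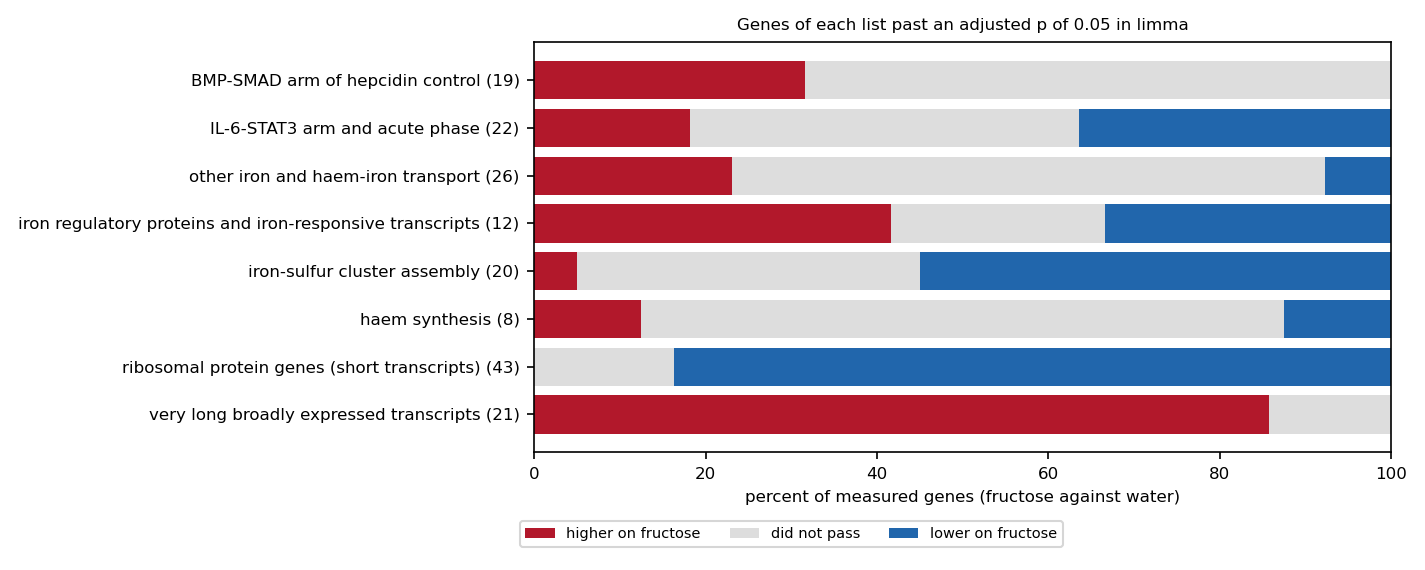
Percent of the measured genes of each list (number in brackets) that were higher, lower or did not pass an adjusted p of 0.05 (limma) in fructose livers against water livers. Ribosomal protein genes (36 of 43 lower) and very long transcripts (18 of 21 higher) are shown beside the iron lists, in which the lower share was greatest for iron-sulfur cluster assembly (11 of 20). Over all probe sets, 11.8% were higher and 12.7% lower.

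Ribosomal protein genes, which are short, had a median difference of -1.12 and very long transcripts of 1.54 in the same comparison. The part of transcript length in the differences of the iron genes was not tested.

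The genes most like Hamp over the 15 arrays were Hamp2 (r = 0.88), Ppp4r4 (r = 0.81), Clec5a (r = 0.79), Gria3 (r = 0.78) and Ncr1 (r = 0.77). Without the 2 arrays farthest from the median these were 0.83, 0.78, 0.81, 0.72 and 0.58. Those most like Tfrc were Arpp21 (r = 0.87), Cldn19 (r = 0.84), Slc41a3 (r = 0.83), Fam71a (r = 0.82) and Nudt10 (r = 0.81), with 0.64 to 0.75 on leaving out such arrays. They were ranked among 19572 probe sets, the arrays share treatment groups, and no p is given. Between members, Hamp and Bmp6 correlated at 0.51, Hamp and Slc40a1 at 0.34, and Hamp and Tfr2 at 0.10. Without the 2 farthest arrays these were 0.37, 0.67 and 0.38.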

How the data were processed

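The authors deposited a table of log2 signals with 1 row per probe set. Its values had already been corrected for background, scaled across arrays and condensed from single probes, with SST-RMA, a variant of robust multi-array averaging, according to the methods. The submitters' notes name RMA, the Transcriptome Analysis Console and the Affymetrix Expression Console 1.4. Normalization between arrays can hide a shift common to all genes. Groups were taken from the sample labels, which give no sex, batch or scan date. Of 28846 entries, 6640 control probes were left out and 22206 probe sets tested, 19572 of them with exactly 1 symbol. The fit was made with limma 3.58.1 in R 4.3.3 on the 15 arrays together, with a mean for each group, and p-values were adjusted (Benjamini-Hochberg) over all probe sets. A gene rose or fell at an adjusted p under 0.05 with any fold change. The array number limits the precision. In the main fit each p-value rests on 1 spread per gene, estimated over all 5 groups together. For Tfr2, Cp and Hfe the SD was 0.86, 0.87 and 0.63 in water livers. In the other groups it was at most 0.20, 0.37 and 0.18. For these genes the shared spread thus understates that of the water arrays. In simulated data for fructose against water (22206 probe sets), the fit called 72% of 100 genes shifted by 1.5 on the log2 scale, 100% of 100 shifted by 3, and 9 unshifted genes. The simulation gave each gene independent noise with the same spread in every group, and shifted 200 genes. In the real comparison 24.4% of probe sets were called and groups differed in spread, so these figures may not carry over.

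Named genes were the 10 members, Hamp2, up to 2 rises and 2 falls per list in fructose against water or in a preservative comparison, and the 5 probe sets most correlated with Hamp and with Tfrc. Tmprss6, Smad4, Smad5, Furin, Id1 and Clec4f were named outside this rule, after their values were seen. The members and lists were chosen with earlier results of these data known. Alternatives were other normalizations, filters, variance models and array weights, a replicate block, covariates, only the 2 groups compared, and arrays left out. Promoter sequences are from RefSeq.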

Additional observations from a re-analysis of the deposited data

How the results depend on the processing

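Against fructose, the count of members past the test was 0 in each comparison under every alternative run. Against water, counts stood at 4 for fructose, 4 for benzoate, 3 for nitrite and 3 for sorbate. With the hybridization controls as a covariate they were 0, 0, 0 and 0 in this order, and Cp then differed by -0.10 with nitrite and -0.19 with sorbate (adjusted p = 0.980 and 0.936), while Itih4 and Slc39a14 differed by -0.32 and -0.31 with fructose (adjusted p = 0.924 and 0.886). This covariate fully separates the water arrays (12.64 to 13.21) from the other 12 (11.68 to 12.40), so it and the water group cannot be told apart. With Y-linked signal as a covariate the counts with benzoate and sorbate were 1 and 1, and Hamp2 in fructose-sorbate against water livers was -0.24. Only the fructose-benzoate group held arrays with and without that signal, so this adjustment rests largely on that group. With only the 2 groups compared the counts were 2 with fructose and 2 with benzoate, and Hamp2 in fructose-sorbate livers against fructose livers, 2.01, passed (adjusted p = 0.00178). Water arrays 1 and 2 were also left out together, as were fructose-benzoate arrays 2 and 3, the latter an alternative chosen after seeing the data. Each leaves 1 array in that arm, with no spread of its own, so no count is given for either. They remain among the settings counted below. Leaving out single arrays gave 2 to 3 members for fructose, 2 to 4 for benzoate, 2 to 3 for nitrite and 3 to 4 for sorbate. Apart from the settings named, the cause of these shifts was not tested.

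The replicate numbers of the labels were not taken as a pairing. Same-numbered arrays of different groups deviated together at r of -0.08 to 0.22 (median 0.03), and 5 of 30 pairs exceeded 0.1. For differently numbered arrays r was -0.19 to 0.16 (median -0.01), and 4 of 60 pairs exceeded 0.1. Whether the numbers pair the arrays was not tested. With the replicate block, 3 members passed for fructose, 4 for benzoate, 3 for nitrite and 3 for sorbate against water and 0, 0 and 0 against fructose, the lost call being Bmp6 (0.84, adjusted p = 0.0521). In fructose against water, Tfr2 passed in 16 of 18 settings, Cp in 16, Hfe in 12 and Bmp6 in 7. Slc40a1 passed in 6 of 19 with benzoate and in 3 of 18 with sorbate. A correction for protein length was not run because no such lengths were at hand, and no member has a further probe set to compare. Bmp6, Tfrc and Hfe lay near the negative controls, where array signal says little about a level.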
